A study of Homo sapiens with 4 samples.

Results

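The histone genes of the clusters HIST1 to HIST4 were examined in AEG-1 knockdown and control SAS cells. A gene was a member when its older symbol starts with HIST1H, HIST2H, HIST3H or HIST4H, and each probe was assigned through the RefSeq accession on the array. By this rule 77 probes of 66 genes were on the array, out of 90 such genes in the RefSeq table and 27953 genes or unnamed transcripts on the array. The 66 genes comprised 6 H1, 15 H2A, 18 H2B, 13 H3 and 14 H4 genes. They lie in HIST1 on chromosome 6 (54 genes), HIST2 on chromosome 1 (8 genes), HIST3 on chromosome 1 (3 genes) and HIST4 on chromosome 12 (1 gene). Of the 24 genes that were not matched to a probe, 5 are protein-coding (H2AC11, H2AC18, H3-7, H3C14 and H4C14). The remaining unmatched entries are pseudogenes.

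SAS is a cell line from a human tongue squamous cell carcinoma. SB cells were SAS cells carrying the LYRIC shRNA-B vector, where LYRIC is another name of AEG-1, the protein of the MTDH gene. SCt cells were SAS cells with the pLKO.1 vector per the labels, and with a scrambled shRNA per the study's methods. Both were stable lines, both kept for 14 days under selection by puromycin at 2 μg/ml, so that 1 shRNA in 1 cell line stands for the knockdown. Each of 4 arrays held SB cDNA in the red dye and SCt cDNA in the green dye, and 0 arrays had the dyes swapped, so the cells and the dyes cannot be told apart. The labels name the 4 arrays biological replicates. Separate cultures were not described, so the p-values measure only the spread between these arrays.

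The 4 arrays shared 1 slide, with 814 to 1168 outlier spots and 0 saturated spots each. The MTDH probe fell by 3.18 on the log2 scale in SB cells (SD 0.17, n = 4; limma, adjusted p = 5.19e-10), and was lower on all 4 arrays. Of the 9 squamous carcinoma markers, 9 were well above background in both dyes on all arrays. The same held for 8 of 8 markers of blood, endothelial, muscle and liver cells, so detection alone did not separate these lists. Detection of a testis histone gene is therefore given as signal over background only.

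Histones package DNA. The core histones H2A, H2B, H3 and H4 form the nucleosome, and the linker histone H1 binds where DNA enters and leaves it. The clustered genes are mostly transcribed during S phase, when new DNA is packed. Most of their mRNAs end in a stem-loop bound by SLBP rather than in a poly(A) tail, and they are processed with the U7 snRNP. NPAT drives their transcription at nuclear bodies next to the clusters. Because the coding sequences of members are closely alike, 1 probe may read several members, and which probes do so was not tested here.

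No histone gene differed between SB and SCt cells past the threshold. A total of 65 genes (75 probes) were well above background in the same dye on all 4 arrays and were tested. The testis linker histone H1-6 was not, being above background in red on 2 arrays and in green on 0. At an adjusted p of 0.05 (limma, Benjamini-Hochberg over all 28505 probes), 0 of 65 member genes were called, beside 825 of 23484 genes (3.51%), and 0 of 75 member probes beside 3.7% of all probes. At an unadjusted p under 0.05 there were 2 members, H4C11 and H2AC25, beside 18.1% of all genes. The methods' t-test gave 0 members at an unadjusted p under 0.05, beside 3207 of 23484 genes. After adjustment it called 0 of all 23484 genes, MTDH among them, and so told nothing of the members. Log2 ratios of SB over SCt ran from -0.13 (H2BC1) to 0.28 (H4C11), with a median of 0.02 beside 0.01 over all genes. There were 36 members above 0 and 29 below. The 95% intervals of all 65 lay between -0.36 and 0.51.

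The mean ratio near 0 covered opposite values on single arrays. Member medians were 0.05 on array 1, -0.01 on array 2, 0.35 on array 3 and -0.33 on array 4. On array 3, 64 of 65 members were above 0, and on array 4, 62 of 65 were below 0. Array 3 gave the highest and array 4 the lowest ratio of 56 of 65 members, beside 2349 of 23136 genes (10.2%) measured on all arrays. The opposite order, array 4 highest and array 3 lowest, was seen in 0 members and in 2432 of all genes. The same sign on all 4 arrays was seen in 1 member (H2AC14), beside 26.8% of tested genes. The array numbers are names only and carry no order in time.

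**Figure D1:**
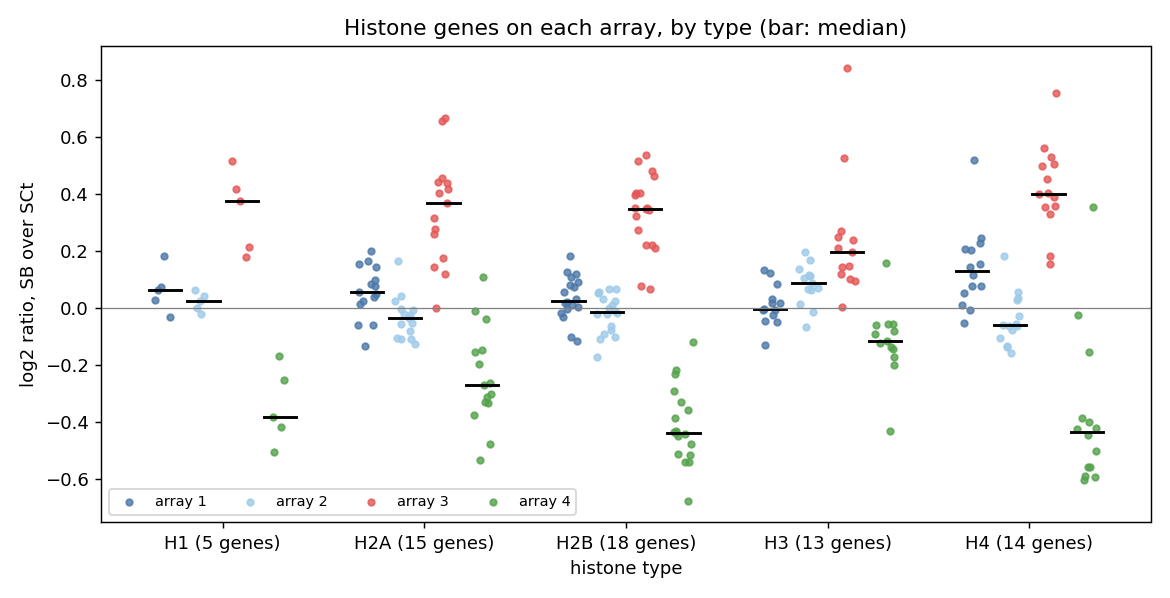
Log2 ratio of SB over SCt (vertical axis) of each tested histone gene on each of the 4 arrays, by histone type (horizontal axis). Each point is a gene and each bar the median of its type on that array. Array 3 lies highest and array 4 lowest in every type, with medians of 0.20 and -0.12 in H3 against 0.40 and -0.44 in H4.

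The spread of a member between arrays was thus wider than that of most genes. The SD over the 4 arrays had a median of 0.29 in members and 0.11 in all genes. It was above 0.25, the 95th percentile of all genes, in 41 of 65 members (63.1%), beside 9.13% of the 7997 brightest genes. The difference between array 3 and array 4 had a median of 0.63 in members and 0.02 in all genes, and ran from 0.01 (H2AC14) to 1.15 (H4C2). Of the 1000 genes with the largest such difference, 50 were members, and 21 were among the first 100. This order of arrays was noticed in the data and carries no test, and 4 arrays allow a two-sided sign-flip p no lower than 0.125.

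**Figure D2:**
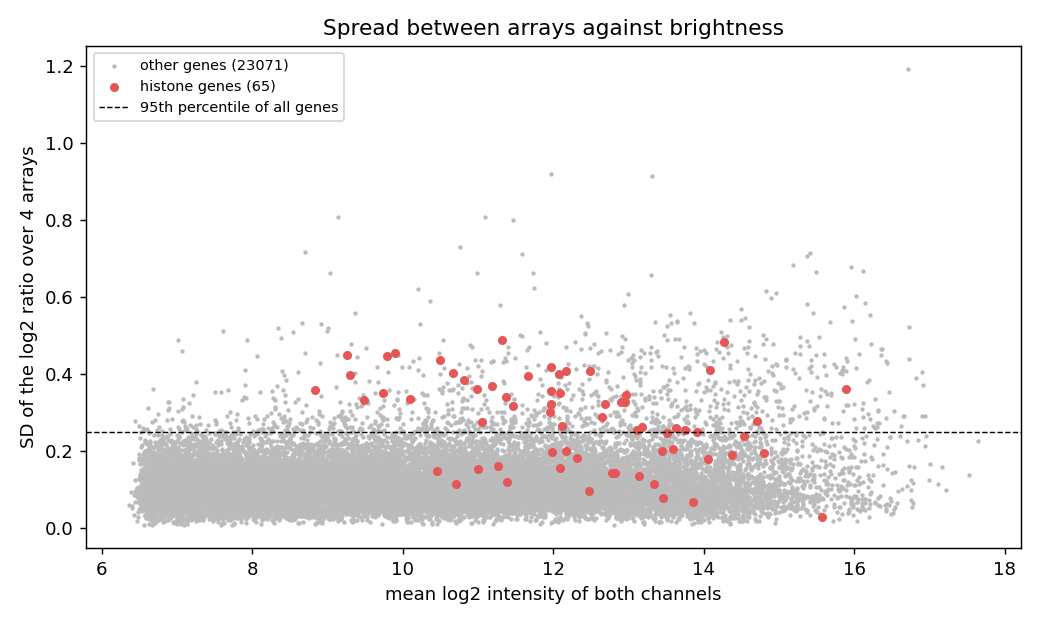
SD of the log2 ratio over 4 arrays (vertical axis) against the mean log2 intensity of both channels (horizontal axis) for 23136 genes. Red points are the 65 histone genes, of which 41 lie above the dashed 95th percentile of all genes at 0.25.

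Separating the channels placed most of this spread in the SCt cells. After scaling both channels to a common distribution, each member was expressed as a log2 difference from its own mean over the 4 arrays of that channel. In SCt cells the member medians were 0.04, 0.03, -0.31 and 0.26 on arrays 1 to 4. In SB cells they were 0.07, 0.02, 0.02 and -0.07. SCt levels were below the gene's mean on array 3 in 61 of 65 members, and above it on array 4 in 58 of 65. A member was at its lowest on array 3 and its highest on array 4 in 42 of 65 genes in SCt cells and in 1 of 65 in SB cells. The SD over arrays was wider in SCt than in SB cells in 52 of 65 members, with medians of 0.27 and 0.14. All genes gave medians between -0.02 and 0.01 in both channels.

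The placement held under 3 other scalings of the channels, which were added after the values had been seen. Centring on the median of the kept probes gave SCt medians of -0.38 on array 3 and 0.40 on array 4, with -0.06 and -0.01 in SB cells. Quantile scaling of each channel alone gave -0.30 and 0.25 in SCt cells, and 0.01 and -0.05 in SB cells. The scanner software's processed signals gave -0.39 and 0.36 in SCt cells, and -0.08 and 0.03 in SB cells. Green dye and SCt RNA cannot be told apart here, and in bulk RNA fewer cells in S phase and less histone RNA per cell cannot be told apart.

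**Figure D3:**
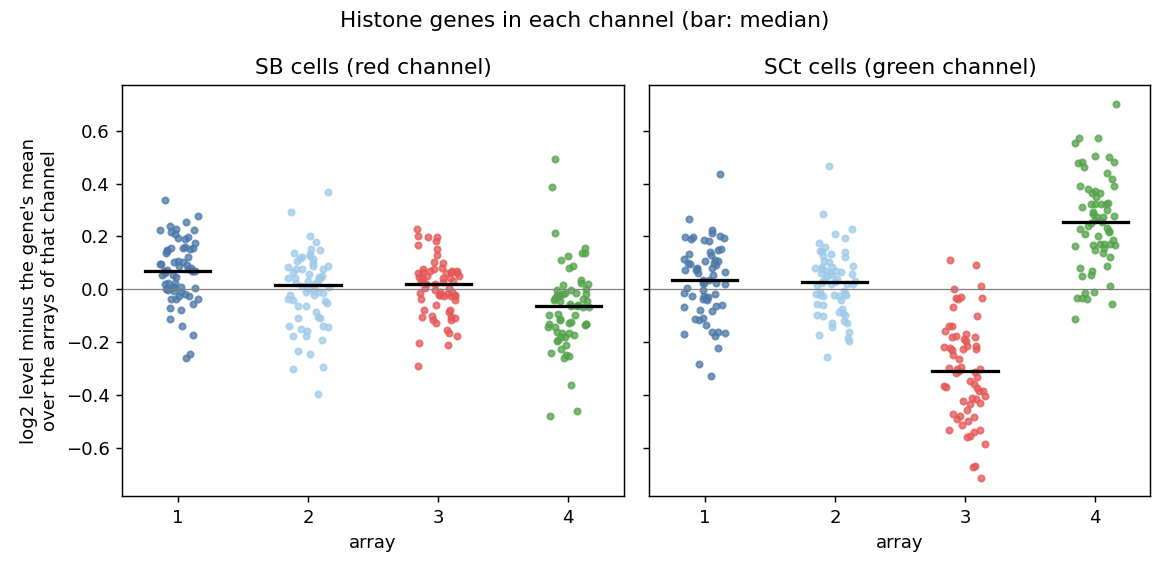
Log2 level of each of the 65 histone genes minus the gene's mean over the 4 arrays of the same channel (vertical axis), by array (horizontal axis), for SB cells on the left and SCt cells on the right. Points are genes and bars are medians. The SCt medians are -0.31 on array 3 and 0.26 on array 4, while the SB medians stay between -0.07 and 0.07.

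H4C2, an H4 gene of HIST1, showed the widest difference between arrays 3 and 4. Its log2 level in SCt cells was 11.1 on array 1, 11.5 on array 2, 10.8 on array 3 and 11.9 on array 4. In SB cells it was 11.3 on all 4 arrays. The ratios were 0.20, -0.11, 0.56 and -0.59, with a mean of 0.02 (SD 0.49, n = 4). Thus the SCt values alone differed by more than 1 log2 unit between arrays 3 and 4.

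Histone types differed in the width of this pattern. The median difference of array 3 over array 4 was 0.81 in H2B, 0.77 in H4, 0.63 in H1 and 0.59 in H2A, but 0.28 in H3. A difference of at least 0.5, a limit set with the values known, was reached by 13 of 14 H4, 13 of 18 H2B, 4 of 5 H1, 9 of 15 H2A and 2 of 13 H3 genes, beside 2.4% of all genes. In SCt cells the H3 medians were -0.03 on array 3 and 0.12 on array 4, against -0.40 and 0.30 for H4. Members of a type are not replicates, so no test was made between the types.

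Linker histones were led by H1-4, with ratios of 0.06, 0.04, 0.51 and -0.51 on arrays 1 to 4. Arrays 3 and 4 lay at opposite ends and the others near 0. H1-1 had the highest mean ratio of the type at 0.09 (0.18, 0.06, 0.38 and -0.25). H1-3 had the lowest mean at -0.03 (0.07, -0.02, 0.21 and -0.38). Neither passed the test (limma, adjusted p = 0.617 and 0.888).

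Among H2A genes, H2AC25 of HIST3 had the highest mean ratio, 0.16 (SD 0.15, n = 4; limma, unadjusted p = 0.0323, adjusted p = 0.215). Its values were 0.20, 0.16, 0.31 and -0.04, so that array 4 alone was below 0. H2AC12 had the lowest mean, -0.10 (0.08, -0.13, 0.14 and -0.48). The widest difference was that of H2AC13, with 0.15, -0.03, 0.67 and -0.38. H2AC14 was flat, with -0.06, -0.0053, -0.00083 and -0.01 and an SD of 0.03, the lowest among members.

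The 18 H2B genes had differences of array 3 over array 4 from 0.44 to 1.08. As with the 5 H1 genes, all were above 0 on array 3 and below 0 on array 4. H2BC7 had the widest, with ratios of 0.03, -0.09, 0.40 and -0.68. H2BC1, the testis H2B, had the lowest mean ratio of all members, -0.13 (0.12, -0.17, 0.07 and -0.54; limma, adjusted p = 0.492). H2BC26 of HIST3 had the highest mean of the type, 0.08 (0.08, 0.01, 0.35 and -0.12).

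H3 genes stayed closer to 0. H3C2 was the exception within HIST1, with ratios of 0.13, 0.01, 0.52 and -0.43. H3C15 of HIST2 had the highest mean of the type at 0.24 (-0.03, -0.02, 0.84 and 0.16; limma, adjusted p = 0.302), a mean carried by array 3. H3C3 had the lowest mean, -0.01 (-0.13, 0.07, 0.15 and -0.14). The other 10 genes differed by 0.06 to 0.47 between arrays 3 and 4.

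Of the H4 genes, H4C11 had the highest mean of all members, 0.28 (SD 0.36, n = 4; limma, unadjusted p = 0.0236, adjusted p = 0.184). Its ratios were -0.05, 0.06, 0.75 and 0.35, and it was the only H4 gene above 0 on array 4. The H4C11 mean moved with the normalization, to 0.17 with the scanner software's ratios and 0.66 with median centring. Its probe was the brightest among the tested members, with a mean log2 intensity of 15.9, and any effect of this was not tested. H4C4 had the lowest mean of the type at -0.11 (0.11, -0.14, 0.18 and -0.59). H4C3 stood out on array 1, with 0.52, 0.18, 0.40 and -0.56.

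The order of the arrays was shared by all clusters. The 53 tested HIST1 genes had medians of 0.35 on array 3 and -0.38 on array 4. In HIST2 (8 genes) these were 0.38 and -0.25, and in HIST3 (3 genes) 0.31 and -0.06. H4C16, the single HIST4 gene, which lies apart from the others on chromosome 12, gave 0.07, -0.16, 0.53 and -0.56. Its SCt level ran from 9.21 on array 3 to 10.4 on array 4, and its SB level from 9.74 to 10.1 over the 4 arrays.

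In HIST2 the H2A genes were H2AC19 (-0.13, -0.0089, 0.65 and -0.26), H2AC20 (0.16, -0.06, 0.46 and -0.31) and H2AC21 (0.05, -0.11, 0.37 and -0.20). All had array 3 highest. H4C15 gave 0.0096, -0.06, 0.39 and -0.39. The H2B genes H2BC21 (-0.03, -0.08, 0.21 and -0.29) and H2BC18 (-0.12, 0.05, 0.22 and -0.23) had a narrower range. H3C13 was the narrowest of HIST2, with -0.05, 0.09, 0.09 and -0.14. In HIST3, H3-4, the testis H3, was flat with -0.0067, 0.10, 0.00094 and -0.06.

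**Figure D4:**
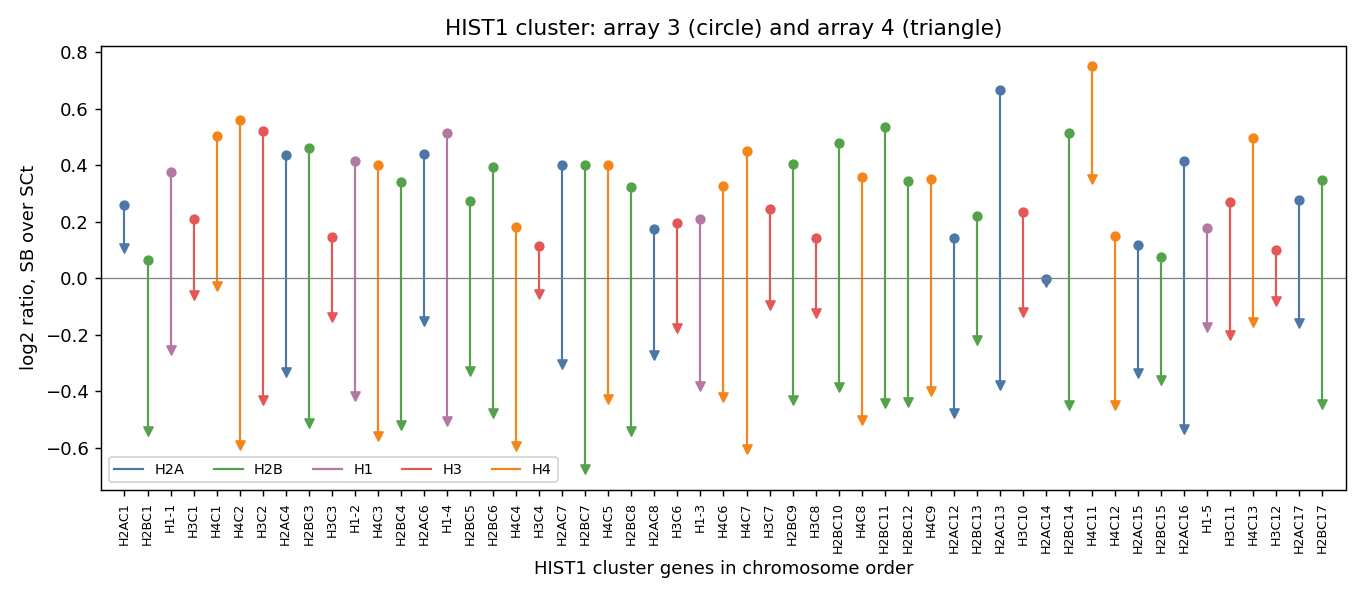
Log2 ratio of SB over SCt (vertical axis) on array 3 (circles) and array 4 (triangles) for the 53 tested HIST1 genes in chromosome order (horizontal axis), coloured by type. Long and short lines are interleaved along the cluster, with H2AC14 (difference 0.01) next to H2BC14 (0.96).

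Wide and narrow genes were interleaved along HIST1, as the plot in chromosome order shows, although some neighbours had close values (H2BC10 with 0.86 and H4C8 with 0.86). Neighbours were not compared with genes farther apart. Many H2A and H2B genes are arranged head to head, with a common promoter between them. Among the tested members, 10 such pairs had RefSeq starts 194 to 246 bases apart. The difference of array 3 over array 4 was unequal within pairs by a median of 0.37, and from 0.02 (H2AC15 and H2BC15) to 0.95 (H2AC14 and H2BC14). The H2AC14 probe was brighter than that of H2BC14, with mean log2 intensities of 15.6 and 12.1, and any effect of this was not tested. The H2B gene had the wider value in 7 of 10 pairs. H2AC7 and H2BC7 had 0.70 and 1.08, and H2BC13 and H2AC13 had 0.44 and 1.04.

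Array 3 lay above array 4 in all 65 members, though by less in most H3 genes. H2AC13 and H2AC14, with near-identical promoters, had unlike values, read with probes of unlike brightness. The promoters are shown for these reasons, and their part in the values was not tested. Each run is the 150 bases before the RefSeq start, 5′ to 3′ on the strand of the gene, for the gene with the widest difference of array 3 over array 4 in each type and for the narrowest H2A and H3 genes. Capitals mark CCAAT, the octamer ATTTGCAT and TATAAA, on either strand. In build GRCh38.p14 they lie at chr6:26156179-26156328 on the plus strand for H1-4, chr6:27808023-27808172 on the plus strand for H2AC13, chr6:27814778-27814927 on the minus strand for H2AC14, chr6:26199366-26199515 on the plus strand for H2BC7, chr6:26032100-26032249 on the minus strand for H3C2, chr1:228425361-228425510 on the minus strand for H3-4 and chr6:26027284-26027433 on the minus strand for H4C2.
H1-4: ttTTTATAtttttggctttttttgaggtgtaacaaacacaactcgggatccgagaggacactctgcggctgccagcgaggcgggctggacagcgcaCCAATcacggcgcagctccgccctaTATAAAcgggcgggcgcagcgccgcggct
H2AC13: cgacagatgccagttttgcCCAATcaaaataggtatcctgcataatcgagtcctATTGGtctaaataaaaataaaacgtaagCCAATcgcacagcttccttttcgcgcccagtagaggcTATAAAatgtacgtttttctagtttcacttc
H2AC14: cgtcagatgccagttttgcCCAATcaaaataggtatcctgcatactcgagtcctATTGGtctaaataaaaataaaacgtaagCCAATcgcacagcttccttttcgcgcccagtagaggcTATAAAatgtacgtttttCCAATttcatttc
H2BC7: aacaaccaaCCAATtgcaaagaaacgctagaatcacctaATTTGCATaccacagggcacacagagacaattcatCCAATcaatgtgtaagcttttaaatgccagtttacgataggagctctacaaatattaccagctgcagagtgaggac
H3C2: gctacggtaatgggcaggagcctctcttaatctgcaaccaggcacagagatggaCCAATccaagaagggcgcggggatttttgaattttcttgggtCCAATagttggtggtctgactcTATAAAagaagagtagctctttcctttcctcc
H3-4: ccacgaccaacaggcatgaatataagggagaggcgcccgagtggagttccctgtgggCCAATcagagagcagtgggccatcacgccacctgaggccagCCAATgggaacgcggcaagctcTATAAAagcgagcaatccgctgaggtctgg
H4C2: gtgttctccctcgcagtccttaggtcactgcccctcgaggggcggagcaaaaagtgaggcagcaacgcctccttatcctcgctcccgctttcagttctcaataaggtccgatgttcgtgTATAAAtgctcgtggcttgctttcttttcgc

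H2AC13 and H2AC14 had the widest and the narrowest difference among H2A genes with an entry, 1.04 and 0.01. Of the 150 bases shown, 145 were the same at the same position. The H2AC14 probe was brighter than that of H2AC13, with mean log2 intensities of 15.567 and 10.496. Any effect of this brightness on the differences was not tested. Within 250 bases before the start, CCAAT on either strand was found in all H1 (5), H2A (14), H2B (18) and H3 (11) genes with an entry and in 3 of 12 H4 genes, beside 32% of 35116 promoters in the table. The octamer was found in 10 of 14 H2A, 14 of 18 H2B and 1 of 11 H3 genes, and in 0 H1 and 0 H4 genes, beside 1.63% of promoters. TATAAA was found in 40 of 60 members, beside 10.7%. None of these motifs contains another. In the 10 head-to-head pairs the starts were at most 246 bases apart, so a motif between them counted for both genes. The H2A and H2B counts are therefore not separate. The H2B genes with the octamer had a median difference of 0.86 between arrays 3 and 4 (14 genes) and those without it 0.45 (4 genes). In H2A genes the values were 0.58 (10 genes) and 0.69 (4 genes). The 12 H4 genes, all without the octamer, had a median of 0.77. Genes are not replicates, and a link between a motif and the difference was not tested.

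Probes of 1 gene did not always show the same width. Of the 66 genes, 56 had 1 probe and 10 had several. For H3C10 the brighter probe gave 0.08, 0.17, 0.24 and -0.12, and the other 0.07, 0.02, 0.64 and -0.48. For H2BC12 the difference of array 3 over array 4 was 0.78 with one probe and 0.24 with the other, for H4C12 it was 0.60 and 1.24, and for H4C1 0.53 and 0.99. The 3 probes of H2BC18 gave 0.45, 0.04 and -0.24, and the first of them carries the accession of another transcript than the remaining ones. Their mean log2 intensities were 13.4, 6.62 and 6.74, and the second was above background in red on 3 arrays only. The H2BC12 probes had 12.7 and 7.81, the dimmer one being the narrower. For H3C10, H4C12 and H4C1 the dimmer probe instead had the wider difference. Any effect of brightness was not tested. The mean ratios of probes of a gene were at most 0.25 apart (H4C4, whose second probe had values on arrays 1 and 2 alone). A type or cluster median thus rests on the probe chosen for each gene.

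Some members are known to give polyadenylated mRNA as well, in particular in cells that have left the cycle. The 9 tested genes of this list had medians of 0.02, -0.05, 0.35 and -0.42 on arrays 1 to 4, beside 0.05, -0.01, 0.35 and -0.32 in the other 56 members. H1-2 gave 0.03, 0.02, 0.42 and -0.42. H2BC11 gave -0.10, -0.10, 0.53 and -0.44, and H2BC4 0.07, 0.03, 0.34 and -0.52. H2AC6 (0.02, -0.05, 0.44 and -0.15), H2BC5 (0.02, -0.02, 0.27 and -0.33) and H2BC12 (-0.02, -0.06, 0.35 and -0.44) ran alike. All 9 had array 3 highest and array 4 lowest.

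Among genes that act on histone mRNA or protein, genes of DNA replication and replication-independent histones, array 3 was highest and array 4 lowest in 2 of 109, beside 10.2% of all genes. Of 39 genes for transcription and processing of histone mRNA, 0 were higher and 1 was lower in SB cells, beside 2.26% lower among all genes. It was TUT4, which adds uridines to RNA ends (-0.21, -0.33, -0.28 and -0.25; mean -0.26, limma, adjusted p = 0.0216). SLBP had a mean of -0.17 (-0.04, -0.12, -0.36 and -0.15; adjusted p = 0.178 by limma). NPAT had -0.10 (-0.02, -0.23, -0.23 and 0.09; adjusted p = 0.481 by limma), and CASP8AP2, a partner of NPAT at the histone locus body, -0.21 (-0.10, -0.15, -0.33 and -0.25; adjusted p = 0.08 by limma).

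Among 22 tested histone chaperones 2 were lower, beside 2.26% lower among all genes. They were NAP1L1, a carrier of H2A and H2B (mean -0.32, limma, adjusted p = 0.0143), and ASF1A, a carrier of H3 and H4 (mean -0.29, limma, adjusted p = 0.0445). Of 14 tested replication-independent histones 0 were called by limma, with 3 at an unadjusted p under 0.05, beside 18.1% of all genes. Of 41 S-phase genes 14 had an unadjusted p under 0.05 by limma in either direction, beside 18.1% of all genes. At the adjusted threshold 0 of the 41 were higher and 3 were lower, beside 2.26% lower among all genes. These were TK1, for thymidine salvage (mean -0.27, limma, adjusted p = 0.0227), UHRF1, for maintenance of DNA methylation (mean -0.30, limma, adjusted p = 0.0398), and TYMS, for thymidylate synthesis (mean -0.33, limma, adjusted p = 0.0496), which was above 0 on array 1. The 4 lists together held 109 tested genes, with 6 lower and 0 higher in SB cells, beside 2.26% lower among all genes. The count of 6 was unstable, and the share of all genes called, 3.51% in the main setting, moved as well. With single arrays left out, 0 to 9 were called. These were 2 without array 1 (2.09% of all genes), 1 without array 2 (1.43%), 0 without array 3 (0.665%) and 9 without array 4 (6.63%). The count was also 1 with the scanner software's ratios (2.44% of all genes), 0 with the series table (2.23%) and 2 without the offset (2.65%). It was 1 with the trend and robust options of eBayes (1.89%). With median centring it was 25 (31.5%), and TK1 had a mean of 0.0073. TK1, UHRF1 and TYMS passed the test in none of these 5 settings.

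**Figure D5:**
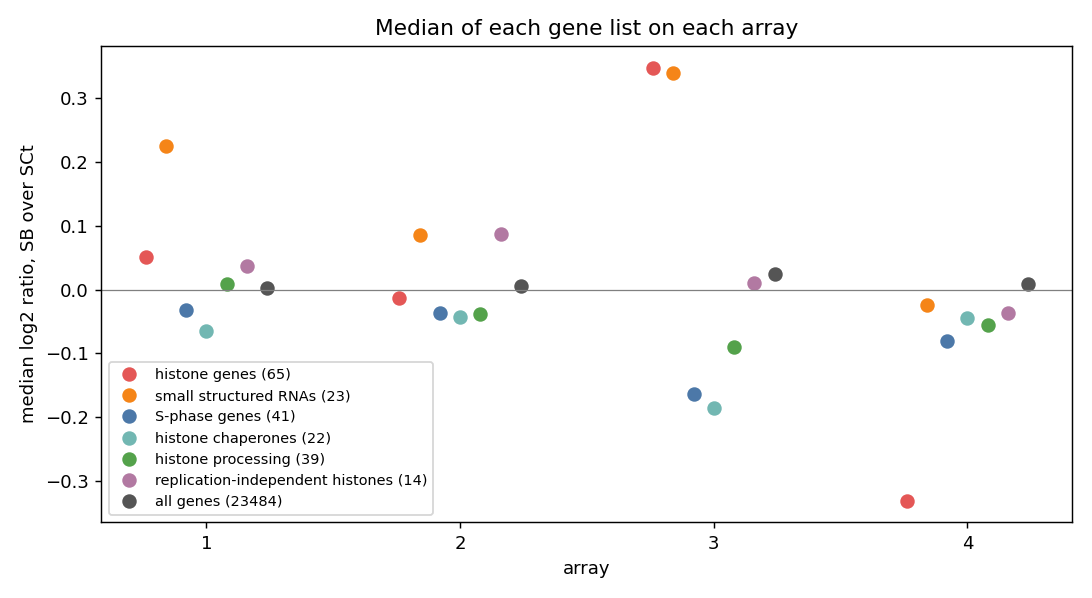
Median log2 ratio of SB over SCt (vertical axis) on each of the 4 arrays (horizontal axis) for the histone genes, the 4 related lists, small structured RNAs and all genes, with the number of genes in brackets. The S-phase genes lie at -0.16 on array 3, where the histone genes lie at 0.35, and at -0.08 on array 4, where the histone genes lie at -0.33.

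On array 3 the S-phase median was -0.16 and on array 4 -0.08, so these genes did not share the sign change of the clustered histones. Replication-independent histones, made outside S phase as well, had medians of 0.04, 0.09, 0.01 and -0.04. The 23 tested small structured RNAs (snRNAs, snoRNAs and the like, mostly without a poly(A) tail), a list added after the data were seen, had medians of 0.23, 0.09, 0.34 and -0.02. Array 3 was highest and array 4 lowest in 11 of the 23. Examples were RN7SK, a regulator of P-TEFb (0.80, 0.29, 1.23 and -0.41), and RMRP, the RNA of RNase MRP (0.23, 0.19, 0.86 and -0.73). Their channels had SCt medians of -0.11 on array 3 and 0.20 on array 4, and SB medians of 0.09 and -0.16. Their part in the values of the histone genes was not tested.

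Leaving out array 4 raised the count of called probes, among members and among all probes (3.7% with all 4 arrays). Without array 4 the member median was 0.14, and 5 of 75 probes were called, all higher in SB cells, beside 6.99% of all probes. The genes were H2AC13, H2AC25 and H4C3 by their brightest probe. With arrays 1 and 2 alone 1 of 75 probes was called, that of H4C3, beside 3.48%. With each array centred on its median in place of loess, 15 of 75 member probes were called, 13 of them higher in SB cells, beside 30.9% of all probes.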

How the data were processed

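Total RNA of SB and SCt cells was reverse transcribed, coupled to Alexa dyes and hybridised by the authors to 4 two-colour Agilent human 44K arrays. The primer of the first strand was not given in the sources used here. The deposited scanner files (Agilent Feature Extraction 10.5.1.1, per the file headers) hold median spot and local background intensities. The deposited log10 ratio in them is red over green after the software's background subtraction and dye normalization. The deposited series table holds the same as log2 ratios, within 0.001 in 97.6% to 97.9% of probes per array, uncentred (array medians -0.0165 to 0.0220). Files held no gene names, and probes were named through RefSeq accessions (GRCh38.p14 table, 24826 of 34127 probes matched). Coordinates of the array's own annotation were not used.

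Median intensities were corrected with normexp (offset 50) and normalised by loess within arrays, with control and outlier spots at weight 0 (limma 3.58.1, R 4.3.3). Outlier spots were then dropped and spots of a probe averaged. A probe was kept when either dye was well above background on each of the 4 arrays (always the same dye), with values on at least 2. The mean log2 ratio was tested against 0 with lmFit and eBayes, Benjamini-Hochberg adjusted over 28505 probes (23484 genes), and a gene took its brightest kept probe. Channel levels were scaled with Aquantile after loess. Scripts were tested on simulated data. Only 4 arrays limit the precision. Each histone probe has 1 spot, and spots of probes printed 10 times had median SDs of 0.058 to 0.068 per array.

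Named genes were the highest and lowest gene of each type, members of HIST2 to HIST4, members known to be polyadenylated, SLBP, NPAT, CASP8AP2, MTDH and called genes of the related lists. Genes named for their difference between arrays, and the small RNAs, were chosen after their values were seen. Members and lists were chosen with earlier results of these data known. Alternatives covered background correction, normalization, filters, outlier spots, the test, the probe of a gene and each array left out, with arrays 1 and 2 alone added after the data were seen.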

Additional observations from a re-analysis of the deposited data

How the results depend on the processing

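The count of 0 called histone probes was the same under all alternatives chosen at the outset except 2. It was 15 (13 higher, 2 lower) with median centring in place of loess, where 30.9% of all probes were called, and 0 to 5 over the arrays left out in turn, the 5 arising without array 4. With arrays 1 and 2 only it was 1. The member median was 0.17 with median centring, beside 0.07 over all genes, and -0.09 to 0.14 over the arrays left out in turn. The number of related genes called was 6 in the main setting. It was 1 with the scanner software's ratios, 0 with the series table, 25 with median centring, 2 with normexp without an offset, 1 with the trend and robust options of eBayes, 0 with the methods' t-test, which called 0 of 28505 probes, and 1 with arrays 1 and 2 only, and 0 to 9 over the arrays left out in turn. The share of all genes called also moved, from 0.665% to 6.63% over the arrays left out in turn, and was 31.5% with median centring. TK1 changed sign with median centring (0.0073, limma, adjusted p = 0.935). The cause of these changes was not tested. Of the 25 members named by type, cluster or the polyadenylated list, 5 were called under at least 1 of these 15 alternatives. All 5 (H2AC6, H2AC25, H3C15, H3-4 and H4C11) were called with median centring, beside 31.5% of all genes. H2AC25 was called without array 4 as well, beside 6.63%. Of the 25 members, 22 changed sign under at least 1 alternative. Members outside these 25 were called as well. They were H2AC1, H2AC14, H2BC13, H3C4, H3C7, H3C12 and H4C1 with median centring, and H2AC13 and H4C3 without array 4. Of all 65 member genes, 12 were called with median centring, beside 31.5% of all genes, and 3 without array 4, beside 6.63%. The order with array 3 highest and array 4 lowest was seen in 54 to 57 of the members under the alternatives with all arrays. The test of each array's ratio is itself the paired comparison of SB and SCt cells, so no further block was fitted. Near-identical members, 1 spot per probe, an unswapped dye and 4 arrays limit what single members show.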
